A study of Mus musculus with 24 samples.

Results

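The genes followed here move sodium, chloride and water across the lung epithelium and capillaries: the 3 subunits of the epithelial sodium channel (Scnn1a, Scnn1b and Scnn1g), the water channels Aqp1, Aqp4 and Aqp5, the chloride channel Cftr and the sodium-potassium-chloride cotransporter Slc12a2. They were chosen by name, with earlier results of these data known, and found by matching the RefSeq transcript of each array probe to a gene symbol. All 8 genes were found, on 10 probes, among 19722 named genes, and all 8 were among the 15895 genes bright enough to test. Whole lungs of C57BL/6 mice, for which the labels name no treatment or altered gene, were taken on postnatal days 1, 4, 7 and 14 (n = 5 each) and at 6 weeks, here day 42 (n = 4). Each lung RNA was hybridised to 1 single-colour array, which reads a transcript as the brightness of a spot. The labels call the samples biological replicates but do not say that each is a separate animal, so p-values measure the spread between these samples.

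Fluid clearance at birth and afterwards rests on sodium transport. Sodium enters the epithelial cell through the apical sodium channel, is pumped out on the other side by the sodium-potassium ATPase, and water follows. The alpha subunit, Scnn1a, is needed for an efficient channel, and beta and gamma subunits raise its current. Chloride moves the other way in the fluid-secreting fetal lung, entering the cell through Slc12a2 and leaving through channels such as Cftr. Aqp5 is the apical water channel of alveolar type 1 cells, Aqp1 the water channel of capillary endothelium and red cells, and Aqp4 a basolateral water channel of airway epithelium.

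Scnn1b and Scnn1g lie beside each other on chromosome 7, with 1 annotated gene model, the long non-coding RNA Gm36848, between them in the RefSeq annotation. Scnn1b and Aqp5 had levels close to each other (r = 0.93 over 24 arrays, and 0.84 without 5 arrays described below). So had Scnn1b and Scnn1a (0.91 and 0.90), but the promoter set used held no entry for Scnn1a. Scnn1g, the neighbour of Scnn1b, was not called in any comparison, and Aqp5 was called only without those 5 arrays. The promoters of Scnn1b, Scnn1g and Aqp5 are shown here. Each runs from 250 bases before to 50 after the annotated start, on the plus strand of GRCm38.p6, from RefSeq: chr7:121864788-121865087 for Scnn1b, chr7:121734229-121734528 for Scnn1g and chr15:99590778-99591077 for Aqp5. Capitals mark the GC box GGGCGG, the letters bound by Sp factors, or its reverse complement CCGCCC.
Scnn1b: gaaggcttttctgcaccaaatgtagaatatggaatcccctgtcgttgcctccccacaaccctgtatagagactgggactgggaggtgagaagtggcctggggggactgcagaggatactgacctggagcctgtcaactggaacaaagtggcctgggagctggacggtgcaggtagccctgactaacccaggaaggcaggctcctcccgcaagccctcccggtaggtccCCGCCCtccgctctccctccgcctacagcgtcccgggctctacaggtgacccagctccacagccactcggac
Scnn1g: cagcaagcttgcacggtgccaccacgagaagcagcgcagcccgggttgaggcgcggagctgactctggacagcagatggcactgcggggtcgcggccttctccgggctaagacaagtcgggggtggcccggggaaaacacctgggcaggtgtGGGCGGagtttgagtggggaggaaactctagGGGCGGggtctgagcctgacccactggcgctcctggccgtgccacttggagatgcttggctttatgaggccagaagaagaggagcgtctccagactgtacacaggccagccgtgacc
Aqp5: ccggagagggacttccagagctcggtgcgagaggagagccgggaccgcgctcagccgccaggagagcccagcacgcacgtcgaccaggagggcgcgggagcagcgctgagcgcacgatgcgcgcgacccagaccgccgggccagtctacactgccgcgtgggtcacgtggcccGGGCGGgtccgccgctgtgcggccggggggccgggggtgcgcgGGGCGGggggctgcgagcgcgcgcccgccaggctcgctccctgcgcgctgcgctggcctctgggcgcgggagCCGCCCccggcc
The GC box occurred 1 time in the Scnn1b window, 2 times in that of Scnn1g and 3 times in that of Aqp5. It occurred 1 time in the window of Aqp1 and 6 times in that of Cftr, where some matches overlap, and 35.7% of all 32851 promoters of this length hold it. None of the 5 windows held the TATA box TATAAA on either strand, which 13.6% of all promoters hold, or AGAACA, the half-site of the glucocorticoid receptor, which 19% hold. CCAAT was found 1 time for Cftr (37.4% of all promoters), and CTCAAG, the core of the NKX2-1 site, 1 time for Aqp1 (15.9%). These matches describe letters in a window and are not measured binding. The GC content was 61.7% for Scnn1b, 64.7% for Scnn1g and 79.7% for Aqp5, against a median of 52.7% over all promoters.

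A level below is log2 of the processed spot signal minus the 75th percentile of its array, so 1 unit is a factor of 2, and a negative level is a spot dimmer than that percentile. Levels of different probes are not compared. On the first principal component, which held 49.8% of the variance, 5 arrays stood apart, namely replicates 4 and 5 of day 1, replicates 1 and 3 of day 4, and replicate 4 of day 42. On these 5 arrays 50.4% to 56% of spots were well above background, against 57.0% to 79.7% on the other 19. The 79.7% belongs to day 14 replicate 3, and the next highest array had 64.6%. The median signal of day 14 replicate 3 was 151.1, and that of the next highest array 107.7. Counts of day 14 arrays well above background include this array, and its part in them was not tested. Results are therefore given over all 24 arrays and over the other 19. The lung was recognisable throughout: 9 of 9 type 1, 10 of 10 type 2, 6 of 6 pan-epithelial and 8 of 8 endothelial marker genes were well above background on every array. Of 6 cardiac muscle markers 5 were so on every array at days 1 and 4, and 6 at later ages. Their mean on an array ran from -0.02 to 6.08 at day 1, -0.91 to 2.06 at day 7 and 1.03 to 3.93 at day 14. From day 7 to 14 their median log2 difference was 1.27, with 0 called over 24 arrays. The part of heart muscle in the levels of sodium pump and other transport genes was not tested. Of 5 salivary gland markers Pip, Smgc and Dcpp1 were well above background on no array at days 7 and 42, while Bhlha15 and Amy1 were so on every array of those ages, and 2 of the 3 tested were higher and 1 lower at day 42 than at day 1 (26.7% of all genes called). Of 5 markers of upper airway and oesophagus 4 (Krt5, Krt13, Krt14 and Trp63) were well above background on every array, and Krt4 on none at days 1, 4, 7 and 42. Of the sex-linked genes, Xist was well above background on 2, 2, 0, 3 and 3 arrays and Ddx3y on 1, 1, 5, 3 and 0 arrays at days 1, 4, 7, 14 and 42, so a sex cannot be read for every array, and the part of sex in the age differences was not tested.

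Scnn1a was the one member that passed the test for a difference between any ages over all 24 arrays. At day 7 its level was 3.17, 3.09, 3.25, 3.45 and 3.64 in replicates 1 to 5, and at day 14 it was 4.63, 4.70, 4.65, 4.78 and 3.75. Every day 14 array lay above every day 7 array, replicate 5 of day 14 by the least. The rise was 2.26-fold (log2 1.18 ± 0.35 SE, adjusted p = 0.0272, limma). Groups did not overlap in this comparison for 16.7% of the genes tested, and 11.6% of them were called, 6.04% as higher at day 14. In whole lung, a change in the number of cells of a type and a change in RNA per cell cannot be told apart. Within the 3 slides the difference was 1.22, 1.64 and 0.85, with 1 or 2 arrays per age on each. The call was lost when any one of day 14 replicates 1 to 4 or day 7 replicates 1 to 3 was left out, with log2 differences of 1.11 to 1.16 and adjusted p between 0.0571 and 0.0717. Without day 14 replicate 5 the difference was 1.37 (adjusted p = 0.01, limma). It was also lost when arrays were scaled to their median (1.01, adjusted p = 0.159), a scaling that moved the median of all genes in this comparison from 0.02 to -0.15.

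Before day 7 and after day 14 Scnn1a showed no called step. Its day 1 levels were 3.62, 2.90, 3.22, 4.89 and 4.23, its day 4 levels 4.33, 3.22, 3.95, 3.32 and 3.35, and its day 42 levels 4.05, 4.24, 4.45 and 5.72. The high values, 4.89 and 4.23 at day 1, 4.33 and 3.95 at day 4 and 5.72 at day 42, are those of the 5 arrays apart. Over the other 19 arrays the means were 3.24 ± 0.36 (SD, n = 3), 3.30 ± 0.07 (n = 3), 3.32 ± 0.22 (n = 5), 4.50 ± 0.42 (n = 5) and 4.25 ± 0.20 (n = 3) at days 1, 4, 7, 14 and 42. On these 19 arrays the means of days 1, 4 and 7 lay low and those of days 14 and 42 high. Neighbouring ages within each level were not called different, which does not show that they were equal. With array weights over 24 arrays, day 42 was called lower than day 14 (-0.39, adjusted p = 0.0101, limma). Over all 24 arrays day 1 ran from 2.90 to 4.89 and overlapped days 14 and 42. Day 42 stood above day 7 by 1.29 ± 0.37 (adjusted p = 0.011) over 24 arrays and by 0.92 ± 0.21 (adjusted p = 0.00167) over 19, both by limma. Day 42 against day 1 gave 0.85 ± 0.37 (adjusted p = 0.0972) over 24 arrays and 1.00 ± 0.23 (adjusted p = 0.00217) over 19.

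**Figure D1:**
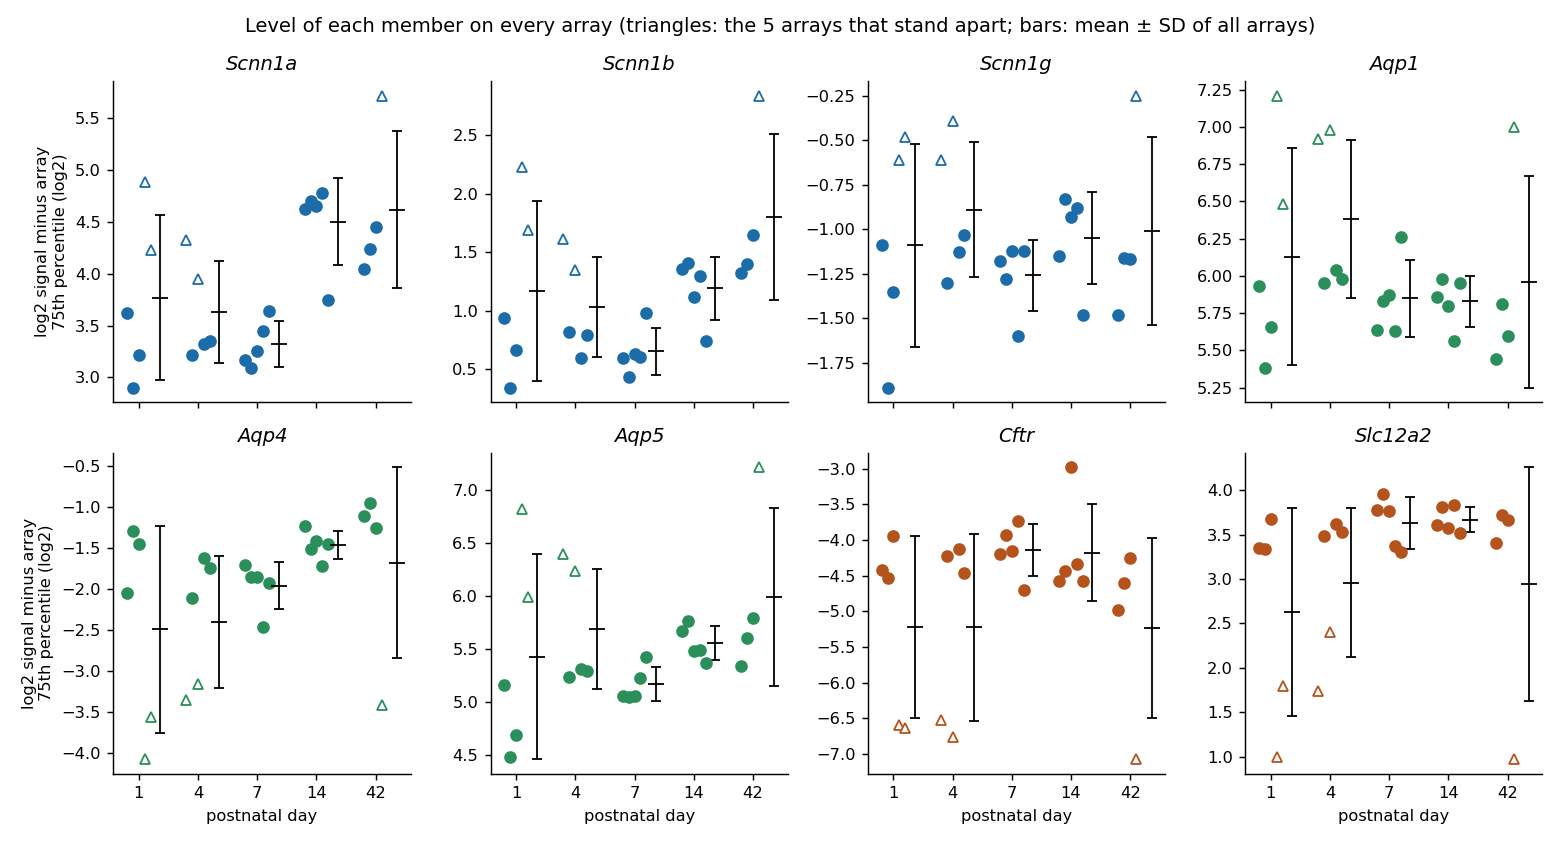
Level of each of the 8 genes (log2 of processed signal minus the array's 75th percentile, brighter probe) on every array, by postnatal day; circles are 19 arrays, triangles the 5 arrays apart, bars mean ± SD of all arrays of an age. Scnn1a steps up between days 7 and 14, and the triangles lie above the circles of their age for Scnn1a, Scnn1b, Scnn1g, Aqp1 and Aqp5 and below them for Aqp4, Cftr and Slc12a2.

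Scnn1b, the beta subunit, had its lowest mean over 24 arrays at day 7 and its highest at day 42. Its levels were 0.59, 0.43, 0.63, 0.60 and 0.98 at day 7, 1.36, 1.41, 1.12, 1.30 and 0.74 at day 14, and 1.32, 1.40, 1.65 and 2.84 at day 42. All 4 day 42 arrays lay above all day 7 arrays, and 28.4% of all genes did not overlap between these ages, whereas day 14 replicate 5 fell inside the day 7 range. Scnn1b was 2.22-fold higher at day 42 than at day 7 (1.15 ± 0.34, adjusted p = 0.0132, limma; 25.1% of genes called), and 1.75-fold higher over 19 arrays (0.81 ± 0.16, adjusted p = 0.000636). From day 7 to day 14 the log2 difference was 0.54, with SE 0.32 and adjusted p = 0.35 over 24 arrays. Over 19 arrays the same 0.54 had SE 0.14 and adjusted p = 0.00658, because none of the 5 arrays belongs to these ages and only the estimate of spread shared by all ages shrank. Within slides it was 0.57, 0.92 and 0.32. Day 1 levels were 0.94, 0.34, 0.66, 2.23 and 1.69 and day 4 levels 1.61, 0.82, 1.35, 0.59 and 0.79, so the 2 highest arrays at each age were arrays apart. Day 42 exceeded day 1 by 0.63 ± 0.34 (adjusted p = 0.189) over 24 arrays and by 0.81 ± 0.18 (adjusted p = 0.00163) over 19.

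Scnn1g, the gamma subunit, was not called in any comparison, with or without the 5 arrays. Its levels ranged from -1.89 to -0.48 at day 1, -1.30 to -0.39 at day 4, -1.60 to -1.12 at day 7, -1.48 to -0.83 at day 14 and -1.48 to -0.25 at day 42, and all ages overlapped. Over 19 arrays the means lay between -1.45 ± 0.41 (SD, n = 3) at day 1 and -1.05 ± 0.26 (n = 5) at day 14, a difference of 0.39 ± 0.18 (adjusted p = 0.0887, limma).

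Aqp5, the alveolar type 1 water channel, had its highest levels on the arrays apart. The brighter of its 2 probes gave 5.16, 4.48, 4.69, 6.82 and 5.99 at day 1, 6.40, 5.24, 6.24, 5.31 and 5.29 at day 4 and 5.34, 5.61, 5.79 and 7.22 at day 42. At day 7 it gave 5.06, 5.05, 5.06, 5.23 and 5.43, and at day 14 5.67, 5.77, 5.48, 5.49 and 5.37, which overlap only through replicate 5 of each age. The log2 difference between days 14 and 7 was 0.39, with adjusted p = 0.667 over 24 arrays and adjusted p = 0.0217 over 19 (limma, SE 0.38 and 0.13). Over 19 arrays Aqp5 was lowest at day 1 (4.78 ± 0.35, SD, n = 3), and day 42 exceeded day 1 by 0.80 ± 0.16 (1.74-fold, adjusted p = 0.000714). Over 24 arrays the same comparison gave 0.56 ± 0.40 (adjusted p = 0.343). The dimmer probe followed the brighter one, with r = 0.99 over 24 arrays and r = 0.95 over 19, given as a description of arrays that share probes' labelling and scaling.

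Beside these epithelial genes, the marker lists moved as follows. From day 7 to 14, 11.6% of all genes were called over 24 arrays, 6.04% as higher. Over 19 arrays 38.5% were called, 20.5% as higher. Of 9 type 1 markers 1 was higher and 0 lower at day 14 than at day 7 over 24 arrays, and 6 were higher over 19. Of 10 type 2 markers 1 was higher over 24 arrays and 6 over 19, and of 6 pan-epithelial markers 0 were higher over 24 and 1 over 19. The mean level of the type 1 list ran from 4.19 to 4.38 at day 7 and from 4.41 to 4.73 at day 14. That of the type 2 list ran from 5.46 to 5.81 and from 5.86 to 6.19. Other lists moved too from day 7 to 14. Of 5 club cell markers 2 were higher over 24 arrays and 3 over 19, with a median log2 difference of 1.75, and of 8 cell division genes 7 were lower over 24 and 8 over 19, with a median of -2.42. Of 8 endothelial markers 0 were higher over 24 arrays and 4 over 19, of 5 leukocyte markers 0 and 3, and of 6 ciliated cell markers 0 and 3. The part of these cell types in the rise of Scnn1a, Scnn1b and Aqp5 was not tested.

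Aqp1, the endothelial water channel, showed no called difference between ages. Its levels ran from 5.38 to 7.21 at day 1, 5.95 to 6.98 at day 4, 5.63 to 6.26 at day 7, 5.56 to 5.98 at day 14 and 5.44 to 7.00 at day 42, and all ages overlapped. No comparison was called over 24 or 19 arrays. Day 14 differed from day 7 by -0.02 ± 0.32, and day 42 from day 1 by -0.17 ± 0.34 over 24 arrays and -0.04 ± 0.17 over 19. Red cells carry AQP1 too, and 5 of 7 red cell markers were lower at day 42 than at day 14 (3.69% of all genes called), with Epb42 and Rhag among those well above background on no day 42 array. Aqp1 in that comparison differed by 0.13 ± 0.34 (adjusted p = 0.857, limma).

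The 2 probes of Aqp4 gave different profiles. The brighter one read -2.05, -1.30, -1.45, -4.07 and -3.56 at day 1 and -3.35, -2.11, -3.16, -1.62 and -1.75 at day 4. It read -1.71, -1.85, -1.86, -2.46 and -1.93 at day 7, -1.24, -1.51, -1.42, -1.72 and -1.45 at day 14, and -1.11, -0.95, -1.26 and -3.41 at day 42. The values from -4.07 to -3.16 are those of the 5 arrays apart, and without them the mean was lowest at day 7 (-1.96 ± 0.29, SD, n = 5) and highest at day 42 (-1.11 ± 0.16, n = 3). Over 19 arrays day 14 exceeded day 7 by 0.50 ± 0.16 (adjusted p = 0.0215) and day 42 exceeded day 7 by 0.86 ± 0.18 (adjusted p = 0.00109), by limma. Over 24 arrays these differences were 0.50 ± 0.50 (adjusted p = 0.69) and 0.28 ± 0.53 (adjusted p = 0.749).

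The dimmer Aqp4 probe did not fall on the arrays apart. It ran from -3.62 to -2.97 at day 7 and from -2.80 to -2.64 at day 14, with no overlap, and at days 1, 4 and 42 it ran from -2.91 to -2.17, from -2.94 to -2.86 and from -2.94 to -2.72. In the fit over all 36467 probes its level rose from day 7 to day 14 (0.52 ± 0.14, adjusted p = 0.0246, limma over 24 arrays; 8.65% of probes called, and 26.2% for any age). The correlation of the 2 probes was r = -0.13 over 24 arrays and r = 0.72 over 19, a description over arrays that share their scaling. Their day 14 against day 7 differences were 0.50 and 0.52, so the probes gave similar values for the ages that hold none of the arrays apart.

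Cftr was close to background. It was well above background on 19 of 24 arrays, the 5 others being the arrays apart, so their values below are not ordered among themselves. On the 19 arrays the level ran from -4.53 to -3.95 at day 1, -4.46 to -4.12 at day 4, -4.70 to -3.73 at day 7, -4.58 to -2.98 at day 14 and -4.98 to -4.25 at day 42. All ages overlapped, and day 14 replicate 3, at -2.98, was the highest array. It is also the array with the largest share of spots well above background (79.7%). The 5 arrays apart read -7.07 to -6.52. No comparison was called with or without the arrays apart. Day 42 differed from day 1 by -0.31 ± 0.35 (adjusted p = 0.494, limma, 19 arrays).

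Slc12a2, which loads chloride into the cell, stayed within a narrow range on the 19 arrays. It ran from 3.34 to 3.68 at day 1, 3.48 to 3.62 at day 4, 3.30 to 3.96 at day 7, 3.52 to 3.83 at day 14 and 3.40 to 3.72 at day 42. The 5 arrays apart read 1.00 and 1.79 at day 1, 1.74 and 2.40 at day 4 and 0.97 at day 42. No comparison was called over 24 or 19 arrays, and day 42 differed from day 1 by 0.13 ± 0.16 (adjusted p = 0.538, limma) over 19 arrays.

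On the arrays apart the members lay on 2 sides of the other arrays. The share of all genes that lay apart in this way was not counted, so the split is no result about the members in particular. On 5 of 5 such arrays Scnn1a, Scnn1b, Scnn1g, Aqp1 and both probes of Aqp5 lay above every other array of their age. They exceeded the mean of those arrays by 0.54 to 1.02 for Scnn1g and by 0.97 to 2.04 for the brighter Aqp5 probe. On 5 of 5 the brighter Aqp4 probe and Slc12a2 lay below, with differences from the mean of those arrays of -2.47 to -1.33 and -2.62 to -1.14. Cftr was below them too, but not well above background on any of the 5, so the size of its difference is not known. The mean of the 10 type 2 markers was 6.31 to 6.90 on these arrays and 5.40 to 6.26 on the others. The mean of the 6 pan-epithelial markers was 2.17 to 2.66 against 1.09 to 1.81, and of the 8 endothelial markers 3.47 to 3.99 against 2.67 to 3.43, and smooth muscle lay apart in the same way (5.13 to 6.34 against 3.39 to 5.01). Other lists overlapped, such as type 1 (4.37 to 5.07 against 3.66 to 4.75), club cell (1.88 to 5.49 against 1.26 to 6.32) and leukocyte (0.18 to 1.57 against 0.07 to 1.90). The 75th percentile of processed signal, by which each array is scaled, was 476.1 to 979.3 on the 5 arrays and 995.5 to 1652.7 on the others. What sets these arrays apart was not tested. Correlations between members changed with them: Aqp1 and Slc12a2 had r = -0.87 over 24 arrays and r = -0.04 over 19, and Cftr and Slc12a2 had r = 0.90 and r = 0.23. Scnn1a and Scnn1b had r = 0.91 and r = 0.90, and Scnn1b and Aqp5 r = 0.93 and r = 0.84. These r are descriptions over arrays that share age, scaling and slides.

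**Figure D2:**
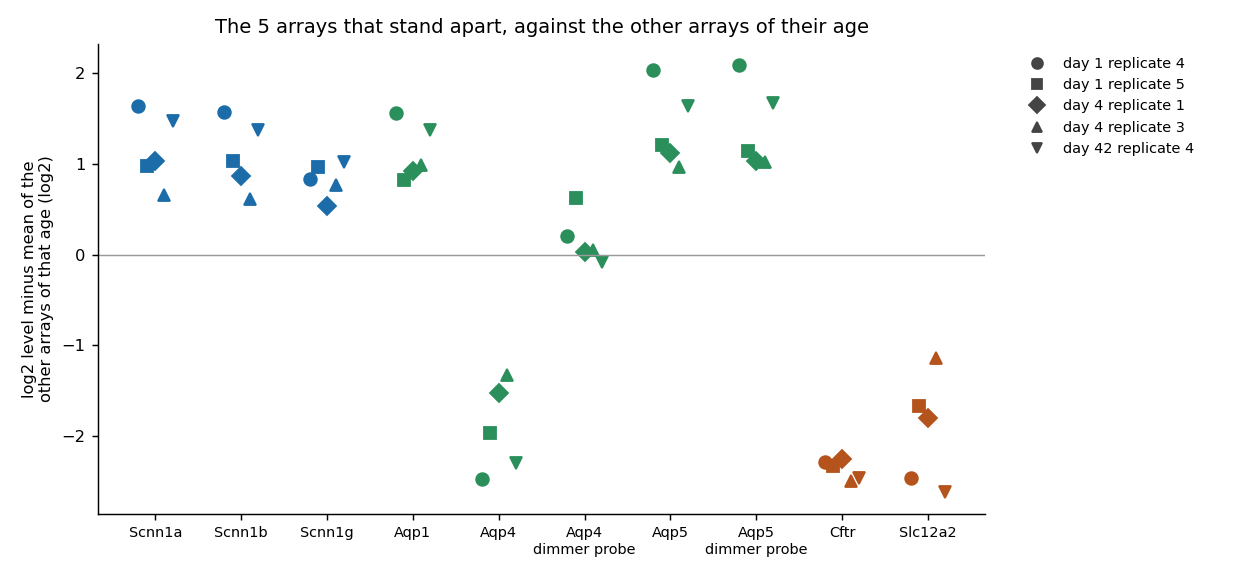
Level of each probe on the 5 arrays apart minus the mean of the other arrays of the same age (log2), 1 symbol per array and 1 column per probe. Sodium channel subunits, Aqp1 and Aqp5 lie above 0, Cftr, Slc12a2 and the brighter Aqp4 probe below, and the dimmer Aqp4 probe between -0.08 and 0.63. Cftr was not well above background on these arrays.

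The count of members called depended on the arrays apart. Over 24 arrays 1 of 8 members, Scnn1a, differed between any ages (adjusted p = 0.0214, limma F-test), where 31.8% of all genes did. From day 1 to 4, day 4 to 7, day 14 to 42 and day 1 to 42 the test called 0 of 8, and 0, 0, 0 and 1 had an unadjusted p under 0.05. In the same order 0.0629%, 0.00629%, 3.69% and 26.7% of all genes were called. Over 19 arrays 4 of 8 members differed between any ages, namely Scnn1a, Scnn1b, Aqp5 and Aqp4, against 53.9% of all genes. From day 7 to 14 the same 4 genes were called, all as higher at day 14, against 38.5% of all genes called and 20.5% as higher. At day 42 Scnn1a, Scnn1b and Aqp5 were called as higher than at day 1, against 46.6% of all genes called and 22.6% as higher. From day 1 to 4, day 4 to 7 and day 14 to 42 the 19 arrays gave 0 of 8 members, with 0.0818%, 0.0503% and 13.6% of all genes called.

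The remaining pairs of ages were compared in a step added after the data were seen. Over 24 arrays Scnn1a and Scnn1b were called between days 7 and 42, as given above, and 0 of 8 members between days 1 and 7, 1 and 14, 4 and 14, and 4 and 42, where 2.71%, 27.4%, 18.8% and 24.3% of all genes were called. Over 19 arrays 0 members were called between days 1 and 7 (4.55% of all genes), and 3 between days 1 and 14, namely Scnn1a (1.26), Scnn1b (0.54) and Aqp5 (0.78), against 41.3%. Between days 4 and 14 Scnn1a (1.21) and Scnn1b (0.45) were called, against 34.5%, and between days 4 and 42 Scnn1a (0.95), Scnn1b (0.72) and Aqp4 (0.72), against 45.4%. That Aqp4 call rests on the brighter probe. The dimmer one had means of -2.92 ± 0.04 at day 4 and -2.80 ± 0.12 at day 42 (SD, n = 3 each). Between days 7 and 42 Scnn1a (0.92), Scnn1b (0.81), Aqp4 (0.86) and Aqp5 (0.41) were called, against 46.5%. Each was higher at the later age, and these comparisons share samples with those above. The median log2 difference of the 8 members from day 7 to 14 was 0.30 and that of all genes 0.02, over 24 and over 19 arrays. Between days 1 and 42 it was 0.43 against -0.06 over 24 arrays and 0.34 against -0.03 over 19.

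**Figure D3:**
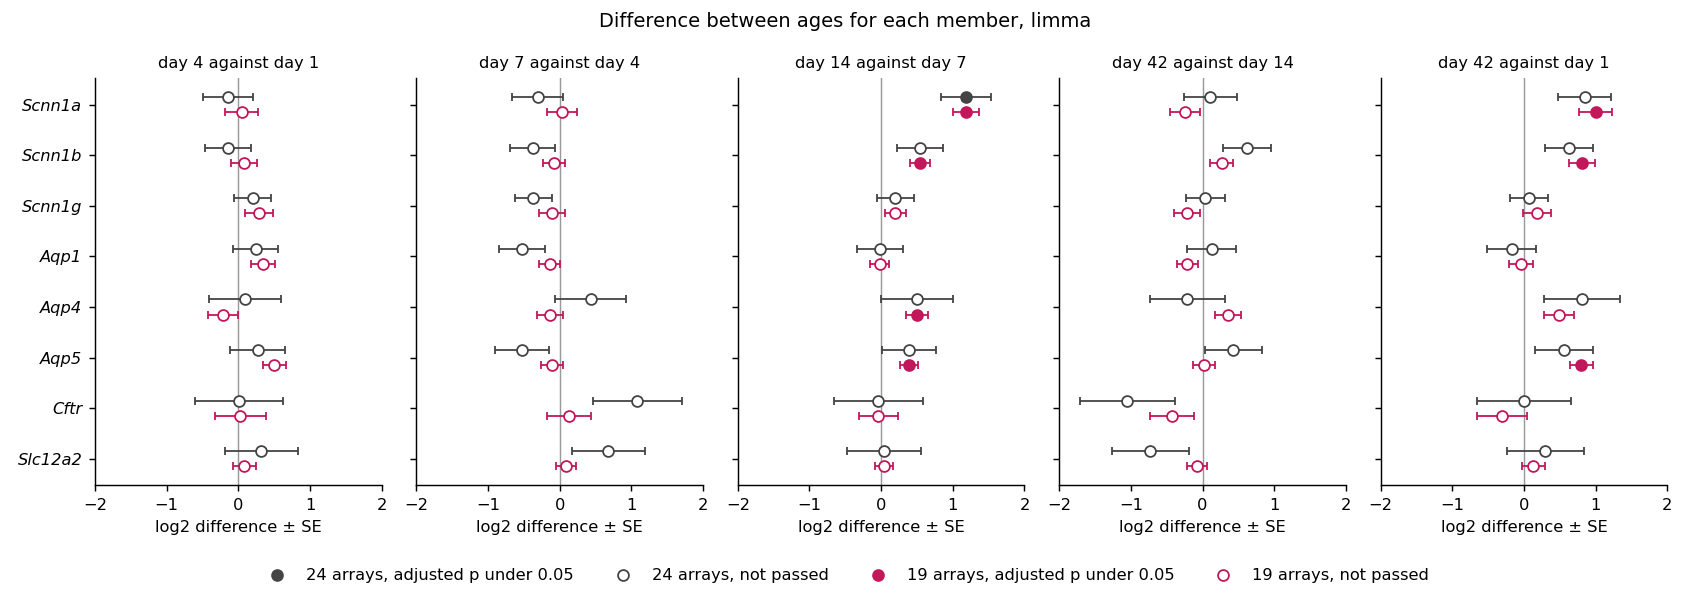
Log2 difference ± SE of each gene in 5 comparisons of ages (limma), in grey over 24 arrays and in magenta over the 19 arrays left without those apart; filled points have adjusted p under 0.05. Only Scnn1a from day 7 to 14 is filled in grey, at 1.18, while 4 genes from day 7 to 14 and 3 from day 1 to 42 are filled in magenta.

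Differences within an array cancel its scale and show whether 2 members changed unequally. For 8 pairs in 5 comparisons (40 exact two-sided permutation tests) 14 had an unadjusted p under 0.05 and 0 passed after Benjamini-Hochberg adjustment, where the smallest adjusted p was 0.0635. With 5 arrays against 5 the smallest exact p is 0.00794, and with 5 against 4 it is 0.0159. On the authors' deposited log2 values, 14 of the 40 passed. From day 7 to 14 the difference of Scnn1b to Scnn1a fell by 0.64, from -2.67 ± 0.11 to -3.32 ± 0.21 (SD, n = 5 and 5, exact p = 0.00794), and no array of either age overlapped. The difference of Scnn1g to Scnn1a fell by 0.97, from -4.58 ± 0.31 to -5.56 ± 0.20, and that of Aqp5 to Scnn1a fell by 0.79, from 1.84 ± 0.08 to 1.06 ± 0.35, both with exact p = 0.00794 and no overlap. All of these falls subtract the same Scnn1a values, so they are not separate results. Each had adjusted p = 0.0635 in the permutation test, and 0.106 without the arrays apart. From day 14 to 42 the difference of Scnn1b to Scnn1a went back up by 0.50 (exact p = 0.0159). Between days 1 and 42 the difference of Aqp5 to Aqp1 rose by 0.73, from -0.70 ± 0.25 (n = 5) to 0.03 ± 0.21 (n = 4, exact p = 0.0159), and by 0.84 without the arrays apart, where 3 against 3 arrays cannot go below exact p = 0.1.

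**Figure D4:**
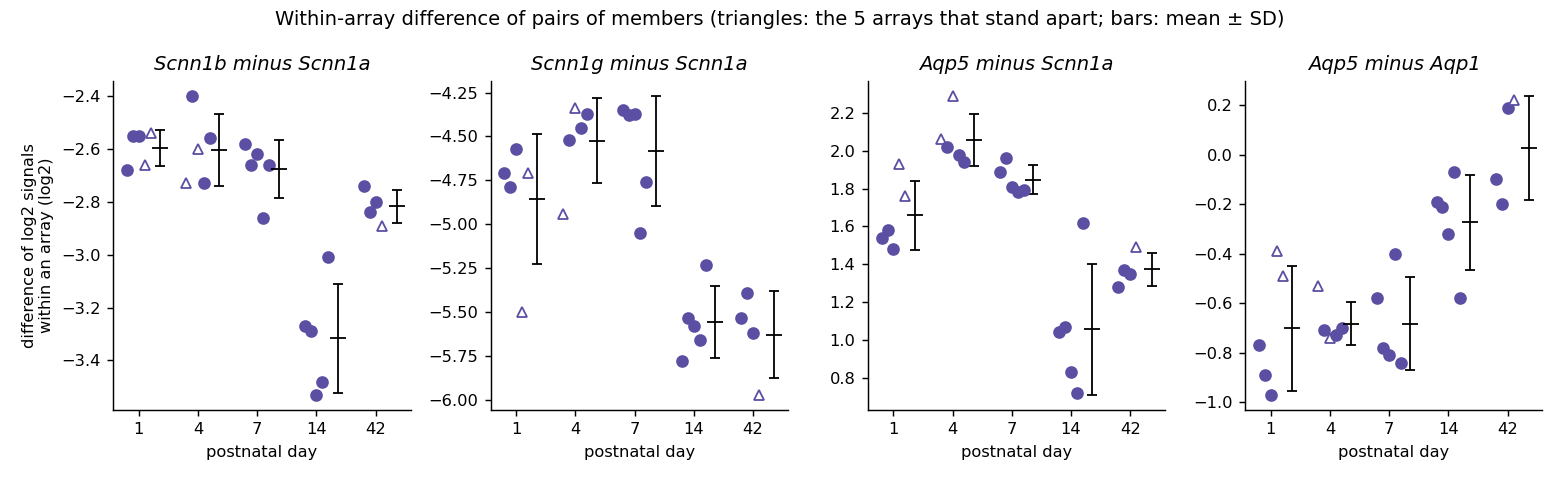
Difference of the log2 signals of 2 genes within each array, by postnatal day, for 4 pairs; triangles are the 5 arrays apart and bars mean ± SD of all arrays of an age. The differences of Scnn1b, Scnn1g and Aqp5 to Scnn1a are lower at day 14 than at day 7, and the triangles for Scnn1b minus Scnn1a, from -2.89 to -2.54, lie close to the other arrays of their age.

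The genes whose levels followed a member most closely were taken as those with the highest Pearson r over 24 arrays, among all genes tested. For Scnn1a they were Gadd45b (r = 0.986, and 0.98 over 19 arrays), Ccdc92 (0.98 and 0.972) and Tent5b (0.978 and 0.977). For Scnn1b they were Tmcc2 (0.983 and 0.968), Dedd2 (0.98 and 0.953) and Vwf (0.98 and 0.966), and for Aqp5 Prkar1b (0.984 and 0.94), Gprc5a (0.984 and 0.939) and Slc44a2 (0.982 and 0.937). For Scnn1g the highest, Dll4, reached 0.904 and 0.812. For Aqp1 it was Sertad3 (0.979 and 0.922), for Aqp4 Lrrc34 (0.97 and 0.875), for Cftr Zfp267 (0.971 and 0.814) and for Slc12a2 Ccdc71l (0.994 and 0.894). Gprc5a is one of the type 1 markers and Vwf is an endothelial clotting factor. Each of these genes was chosen over 24 arrays. Chosen over 19 arrays instead, the highest r was with Dpep1 for Scnn1a (0.982, and 0.967 over 24), Epb41l4b for Scnn1b (0.983 and 0.955), Slc31a1 for Scnn1g (0.822 and -0.019), Asb14 for Aqp4 (0.927 and 0.947), Peg13 for Aqp5 (0.97 and 0.948) and Dr1 for Cftr (0.847 and 0.969), while Aqp1 and Slc12a2 kept Sertad3 and Ccdc71l.

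Of 83 other genes of ion and water transport, written as 6 lists, 71 were tested. From day 7 to 14 the test called 9 as higher and 5 as lower of 71 (19.7%, against 11.6% of all genes), and over 19 arrays 24 and 11 (49.3%, against 38.5%). Between days 1 and 42 it called 14 as higher and 9 as lower (32.4%, against 26.7%), and over 19 arrays 28 and 12 (56.3%, against 46.6%). It called 0 of 71 from day 1 to 4 and from day 4 to 7 over 24 arrays, against 0.0629% and 0.00629% of all genes. The median log2 difference from day 7 to 14 was 0.21 over the 71 genes and 0.02 over all genes.

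The hormone and turnover genes, which set how long the sodium channel stays at the membrane and how it answers steroids, held 5 genes that rose and 1 that fell of 18 from day 7 to 14 (33.3%, against 11.6% of all genes). Hsd11b1, which regenerates active glucocorticoid, rose 3.32-fold (1.73 ± 0.27, adjusted p = 0.000152, limma). Tsc22d3, the glucocorticoid-induced GILZ, rose 3.04-fold (1.60 ± 0.29), Usp2, a deubiquitinase that acts on the channel, 2.55-fold (1.35 ± 0.30). Nr3c2, the mineralocorticoid receptor, was also called as higher (adjusted p = 0.0267), but was well above background on 3 of 5 arrays at day 7 and 4 of 5 at day 14, so the size of the change is uncertain. Hsd11b2, which inactivates glucocorticoid, fell by 1.29 and was well above background on 5 of 5 arrays at day 7, 4 of 5 at day 14 and 0 of 4 at day 42. It was at least 3.00-fold lower at day 42 than at day 1 (adjusted p = 0.00016) and at least 1.69-fold lower than at day 14 (adjusted p = 0.0391), bounds that set the brighter age against the dimmest signal still well above background on each day 42 array. The day 14 mean includes an array not well above background, so the bound of 1.69 is approximate. Between days 1 and 42, 4 of 18 rose, among them Hsd11b1 (2.02 ± 0.29) and Tsc22d3 (1.30 ± 0.31). A further 5 fell, among them the ubiquitin ligase Nedd4 (-0.87 ± 0.27) and the kinase Wnk2 (-0.95 ± 0.34). In this comparison 26.7% of all genes were called. The kinase Sgk1, which slows removal of the channel, differed by 0.02 from day 7 to 14 (adjusted p = 0.985). It was lower at day 42 than at day 1 (-0.43, adjusted p = 0.0368), and over 19 arrays it fell from day 4 to 7 (-0.68 ± 0.12, adjusted p = 0.0442), the one transport gene called there. Nedd4l, its target ligase, differed by 0.35 from day 7 to 14 (adjusted p = 0.29).

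Of 12 subunits of the sodium pump and its FXYD regulators tested, 2 rose and 0 fell from day 7 to 14 (16.7%, against 11.6% of all genes). Atp1b1, the beta-1 subunit, rose 2.20-fold (1.13 ± 0.18, adjusted p = 0.000211, limma), from 1.49 ± 0.15 to 2.62 ± 0.46 (SD, n = 5 each). Fxyd7 was called as higher too (adjusted p = 0.0158), with 1 of 5 and 4 of 5 arrays well above background. Between days 1 and 42, 4 of 12 rose (33.3%, against 26.7% of all genes called), among them Atp1b1 (0.79 ± 0.19) and Fxyd2 (0.83 ± 0.29). Fxyd7 was also among them, but was well above background on 0 of 5 day 1 and 3 of 4 day 42 arrays. The size of its change is therefore uncertain. Of 9 proteases that activate the channel by cleaving it, and their inhibitors, Serpinb1a rose (0.53 ± 0.17) and Serpine2, the protease inhibitor nexin-1, fell (-1.08 ± 0.30) from day 7 to 14, and 7 did not pass. Called were 22.2% of this list, against 11.6% of all genes. The channel-activating protease Prss8 differed by 0.17 (adjusted p = 0.91).

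Of 5 other aquaporins tested, 0 passed in the 5 comparisons over 24 arrays, though 1 did in the test over any age. Over 19 arrays Aqp2 rose from day 7 to 14 (0.73 ± 0.14, adjusted p = 0.000568) and fell from day 14 to 42 (-0.77 ± 0.16), and Aqp11 was higher at day 42 than at day 1 (0.43 ± 0.15). Aqp3 differed by 1.01 from day 7 to 14 (adjusted p = 0.162). Of 14 other chloride and bicarbonate transporters, the sodium-proton exchanger Slc9a2 was called as higher at day 14 than at day 7 (adjusted p = 0.0156), with 0 of 5 day 7 and 2 of 5 day 14 arrays well above background and no call on the authors' deposited values (adjusted p = 0.0556), and the chloride channel Clcn2 fell (-0.42 ± 0.11). From day 7 to 14, 14.3% of this list was called, against 11.6% of all genes. Slc26a4, the anion exchanger pendrin, rose by 2.53 ± 0.71 from day 14 to 42 and by 4.73 ± 0.71 from day 1 to 42 (adjusted p = 0.0473 and 2.08e-05, limma). In these comparisons 3.69% and 26.7% of all genes were called. Over 19 arrays the first was no longer called (2.47 ± 0.87, adjusted p = 0.0713) and the second was (adjusted p = 0.000777). Its level was 1.07 to 1.98 at day 42 and -4.21 to -1.90 at day 1, while day 14 ran from -1.95 to 2.20.

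Of 13 other cation channels, Asic2 and Kcnma1 fell from day 7 to 14 (15.4%, against 11.6% of all genes called). Asic2, an acid-sensing relative of the sodium channel subunits, went from 5 of 5 arrays well above background to 2 of 5 (adjusted p = 0.000509, limma). Its fitted difference of -4.21 rests on values at background and is no measure of size. It was at least 5.81-fold lower at day 42, where it was above background on 0 of 4 arrays, than at day 1. Kcnma1, the large-conductance potassium channel, had a fitted difference of -1.98 ± 0.32 (adjusted p = 0.000189), likewise with 5 of 5 arrays well above background at day 7 and 2 of 5 at day 14. Between days 1 and 42 Kcnn4 (1.32 ± 0.37), Trpv4 (0.97 ± 0.30) and Cnga1 (1.45 ± 0.51), a calcium-activated potassium channel and 2 cation channels, rose, Cnga1 with 3 of 5 and 3 of 4 arrays well above background. Smooth muscle expresses Kcnma1 as well, and of 4 smooth muscle markers 1 was lower at day 14 than at day 7 and 2 lower at day 42 than at day 1. In these comparisons 11.6% and 26.7% of all genes were called. The part of smooth muscle in the fall was not tested.

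**Figure D5:**
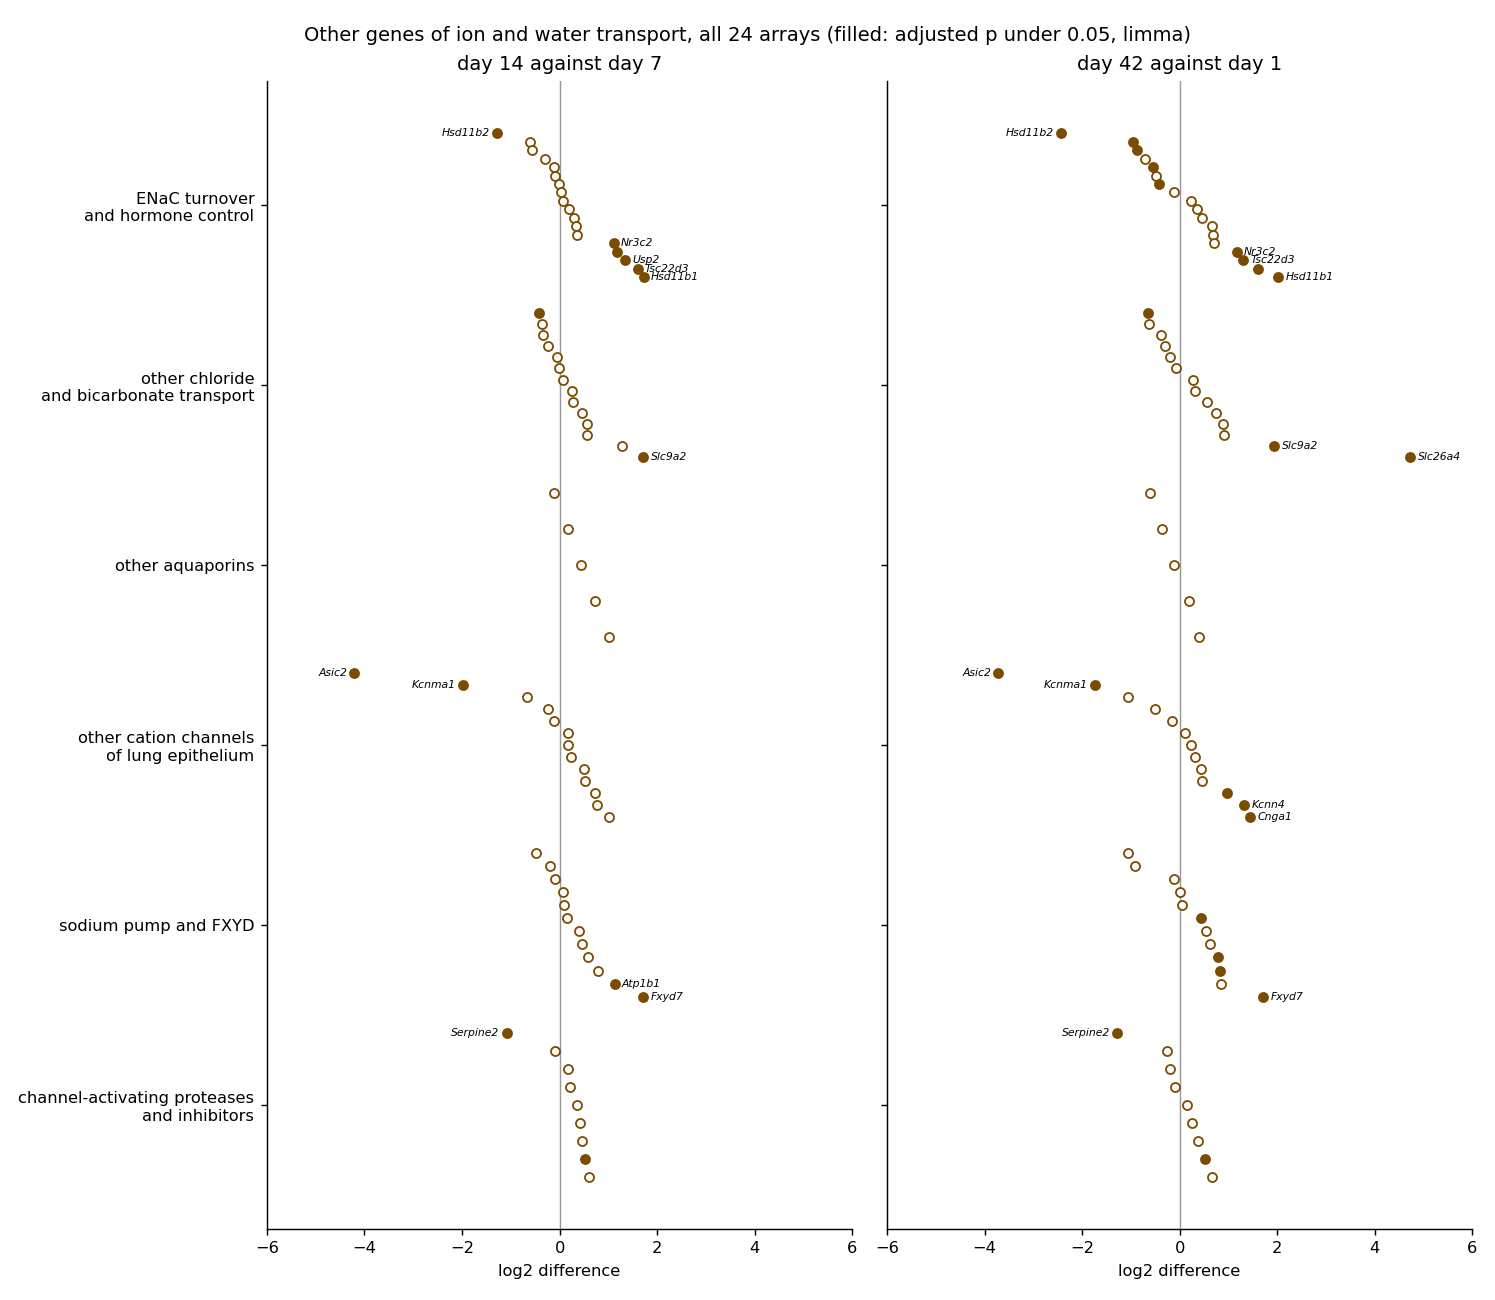
Log2 difference of each tested gene in 6 lists of transport genes, from day 7 to 14 and from day 1 to 42 (limma, 24 arrays); 1 point per gene, filled where adjusted p is under 0.05, with names for most filled points beyond 1 in size. Hormone genes Hsd11b1 and Tsc22d3 lie to the right in both panels and Hsd11b2 to the left, and Slc26a4 lies at 4.73 from day 1 to 42. Asic2 and Kcnma1, to the left, were near background on most arrays of the later age.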

How the data were processed

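Whole lung RNA of 24 samples was read on single-colour Cy3 arrays, 8 per slide on 3 slides that each hold every age. The members and gene lists were chosen with earlier results of these data known. Processed signal, an intensity with background and spatial trend removed, and median spot and background intensity were made by Agilent Feature Extraction, version 10.7.3.1 in the deposited files and 10.7.1.1 in the submitters' processing notes. The deposited files also hold other values, 0 or 1 flags that mark a spot as bright enough, saturated or uneven. The authors deposited a log2 table, by a method not given in the sources used here.

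Log2 of processed signal minus each array's 75th percentile was used. The 59305 spots other than controls held 55681 probes, whose repeats were averaged, and 138 probes were left out for uneven spots. Of 32260 probes with a RefSeq transcript 25998 were named, through a table of GRCm38.p6. A gene took its brightest probe, and was tested where that probe passed the brightness flag on 4 or more arrays. No spot was saturated (0 on all arrays). The number of arrays limits the precision.

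Limma 3.58.1 (R 4.3.3) compared ages with 1 mean per age over 24 arrays, with Benjamini-Hochberg adjustment in each comparison and a threshold of 0.05. Pairs of members were tested by exact permutation (scipy 1.17.1). On simulated data with 15895 genes, 44% of 2-fold and 78% of 4-fold changes were recovered for day 14 against day 7. The simulated noise was independent between genes and few genes were changed. These rates need not hold for the real data, where many genes changed and the arrays apart moved many genes together. Genes named beyond the members are, per list and comparison, up to 3 in each direction with the largest change past the test, plus the 3 most correlated per member (fewer are printed for some). Nr3c2, Sgk1, Nedd4l, Prss8 and Aqp3 from day 7 to 14 were added after their values were seen. Some genes the rule names are not reported here. Alternatives were other scalings, normexp (offset 50, on median signals, since the planned mean signal was not among the columns used), the authors' table, filters, probes, slide and replicate blocks, array weights, and left-out arrays. Replicate numbers did not pair samples: the median correlation of deviations between samples with the same number was -0.00985 over 46 pairs.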

Additional observations from a re-analysis of the deposited data

Results flagged for a closer look

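Over the 10 probes and 5 ages 50 groups of 4 or 5 arrays were checked for a single array far from the rest by Dixon's test, which chance passes in about 1 of 20 groups, and 4 did so. Scnn1a on day 14 replicate 5 was 3.75, against 4.63 to 4.78 on the other day 14 arrays. Aqp4, brighter probe, on day 42 replicate 4 was -3.41, against -1.26 to -0.95. Slc12a2 on the same array was 0.97, against 3.40 to 3.72. Both are readings of 1 of the 5 arrays apart. Cftr on day 14 replicate 3 was -2.98, against -4.58 to -4.33. That array had the largest share of spots well above background (79.7%).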

How the results depend on the processing

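Counts below are of members (8 tested) and of the 71 other transport genes. Of all genes 11.6% were called from day 7 to 14 in the reported setting and 38.5% without the 5 arrays. From day 1 to 42 it was 26.7% and 46.6%, and for any age 31.8% and 53.9%. For the other settings the share of all genes called is not given. A higher count under them is therefore no result about the members or the transport genes. Members called from day 7 to 14 were 1 in the reported setting, 0 with median scaling, 3 on the authors' table (3 without the 5 arrays as well, a setting added after seeing the data), and 4 with array weights, with the 2 ages fitted alone, and without the 5 or the 6 arrays (day 14 replicate 5, the sixth, lies at 8.6 on the second principal component, where the other day 14 arrays lie between -48.5 and -40.5). Members called from day 1 to 42 were 0, but 3 with quantile normalization, the authors' table with or without the 5 arrays, array weights, and without the 5 or 6 arrays. For any age they were 1, but 0 with median scaling, 3 with quantile normalization or the authors' table, and 4 with array weights, without the 5 or 6 arrays and on the authors' table without the 5. Array weights called 1 member (0 reported) from day 4 to 7, Aqp1 at -0.27, and 1 from day 14 to 42, Scnn1a, whose difference turned from 0.11 to -0.39 (adjusted p = 0.0101, limma). Leaving out single replicates gave 0 to 1 members from day 7 to 14, 0 to 2 from day 1 to 42 (1 without day 42 replicate 4, namely Aqp4, 1.38, adjusted p = 0.0353; 2 without day 1 replicate 4, namely Scnn1a, 1.12, and Scnn1b, 0.89) and 1 to 2 for any age (2 without day 1 replicate 4). Probes called were 2 of 10 for any age, 1 with no filter, 5 on the authors' table and 6 without the 5 arrays, and unequal pairs 0, but 14 on the authors' table.

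Transport genes called from day 1 to 4 were 0, but 5 with array weights and 1 without the 5 or 6 arrays or on the authors' table without the 5. From day 4 to 7 they were 0, but 1 with normexp, 22 with array weights, 1 without the 5 or 6 arrays, and 0 to 1 with single replicates left out (1 without day 14 replicate 5 or day 1 replicate 4). From day 7 to 14 they were 14, but 9 with normexp, 8 with the filter on all arrays, 55 with array weights, 29 with the ages alone, 35 and 39 without the 5 and 6 arrays, 38 on the authors' table without the 5, and 9 to 14 with single replicates left out (9 without day 14 replicate 1). From day 14 to 42 they were 4, but 2 with median scaling, normexp, no filter or the mean of probes, 11 on the authors' table, 25 with array weights, 0 with the ages alone, 11 and 13 without the 5 and 6 arrays, 15 on the authors' table without the 5, and 1 to 6 with single replicates left out (1 without day 42 replicate 1, and 2 without any other day 42 array, any day 14 array or day 7 replicate 3). From day 1 to 42 they were 23, but 46 with array weights, 12 with the ages alone, 40 and 42 without the 5 and 6 arrays, and 43 on the authors' table without the 5. The replicate block gave 1 member and 13 transport genes from day 7 to 14, and 0 and 18 from day 1 to 42; it changed no call of a member. Of 1555 log2 differences over 40 results and 39 alternatives 1508 kept their side of the threshold, 1410 of them with the same sign and 98 with the other sign, neither value being called. A further 8 were no longer called, 38 became called and 1 reversed. Fewer arrays fit the ages alone, and the cause of other changes was not tested. Cftr near background, and the number of arrays, limit what could be seen.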
